A study of Sus scrofa with 18 samples.

Results

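Long intergenic noncoding RNA (lincRNA) loci were followed through the growth of subcutaneous fat in Ningxiang pigs. A locus was taken when its transcript type in the deposited table contained lincRNA, when it lay outside the X and Y chromosomes and bore no bare Rfam number as its first name, and when it had an FPKM (the fragments of a locus, scaled to its transcript length and to the depth of the library) of at least 0.5 in at least 3 of 18 libraries. This gave 55 loci out of 257 lincRNA loci of any level, and out of 27883 loci in the whole table. The choice used annotation and a minimum level and no test between stages, but 3 libraries are 1 stage, so a locus high in a single stage could enter through it. Just outside the minimum, the third-highest FPKM of a locus was 0.44, 0.46 and 0.47, and just inside it was 0.51, 0.55 and 0.56.

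Backfat over the thickest point of the shoulder was taken from 3 pigs at each of 6 ages, spaced by 60 days from day 60 to day 360, with 1 library per pig from RNA depleted of ribosomal RNA. The methods of the study describe every animal as a castrated Ningxiang male reared under standard conditions, the 3 pigs of a stage as full sibs, and pigs of different stages as sharing 1 parent, so stage and litter cannot be told apart. Each library held between 74077094 and 84236689 counts. In some libraries these totals exceeded the mapped reads that the study lists, so the counts are not simply mapped reads. Whether strand was used in counting is not given in the sources used here, so reads of overlapping loci on opposite strands may be mixed.

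A lincRNA is a transcript, usually spliced and polyadenylated like a messenger RNA, that carries no long open reading frame. Some are known to act on chromatin or on neighbouring genes, some to host small RNAs in their introns or exons, and some are by-products of a promoter that fires in both directions. As a class they are known for low levels and for marked tissue specificity. Adipose tissue contains many such transcripts, and few of those of the pig have a name or a tested function. No locus described here carried its own name from a list of 65 known long noncoding RNAs, so the loci are given by Ensembl identifier, by position in Sscrofa11.1 and by nearest protein-coding row.

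Some libraries stood apart. Adipocyte markers summed to between 628 and 1088 FPKM. Fibroblast and preadipocyte markers summed to between 1365 and 2048 FPKM at 120 days and to between 261 and 1079 FPKM in the other 15 libraries, and exceeded the adipocyte sum in all 3 libraries of 120 days and in 3 others. COL1A1 weighed most in the fibroblast and preadipocyte sum, with a median of 398 FPKM and a highest value of 1805 FPKM. The medians of PDGFRA, DPT, LUM and DCN lay between 8.05 and 69.8 FPKM, so the sum mainly follows 1 collagen gene. The fibroblast and preadipocyte sums moved with stage, from the highest at 120 days to between 326 and 582 FPKM at 360 days. Their part in the stage results was not tested. Skeletal muscle markers summed to 341 FPKM in 180 days replicate 1 and to 177 FPKM in 120 days replicate 2, against 0.77 to 33.3 FPKM in the other 16. Liver markers summed to 398 FPKM in 240 days replicate 2 and to 299 FPKM in 300 days replicate 2, against 4.6 to 12.3 FPKM in the other 16. In CPM, which is counts scaled to library depth, the Y-linked genes together lay between 128 and 278 in 11 libraries, at 13.1 in 300 days replicate 2, and under 1 in 60 days replicates 1 and 3, 120 days replicate 2 and all 3 libraries of 180 days. This goes against the described sex of those animals. Among the read statistics that the study lists, the library of 360 days replicate 3 had the highest GC content and the lowest share of mapped reads, and it is among the libraries omitted in turn below. Results are therefore also given without the 4 libraries with muscle or liver markers, without the 7 libraries low in Y-linked genes (which leaves no library of 180 days), and with a covariate for the Y-linked level.

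LincRNA loci were expressed at low levels. Their median FPKM over libraries had a median of 0.808 across the 55 loci, against 2.49 across the 11916 protein-coding loci tested and 1.66 across all 19470 loci tested. At 22 loci the median was at least 1 FPKM, at 2 it was at least 5 FPKM, and at 18 it was below 0.5 FPKM. Of the 55 loci, 51 were above 0 in all 18 libraries and 22 reached 0.5 FPKM in all 18. Together they took between 0.0993% and 0.199% of the counts of a library. Their counts were modest, with a median count below 100 at 16 loci, and the coefficient of variation over libraries (median 38.2%) was larger than that of protein-coding loci (19.8%). It was 25.5% over all loci tested. At tested loci without a transcript type, which were also low (median 1.18 FPKM), it was 35.2%, so the larger variation is not particular to lincRNA loci.

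**Figure D1:**
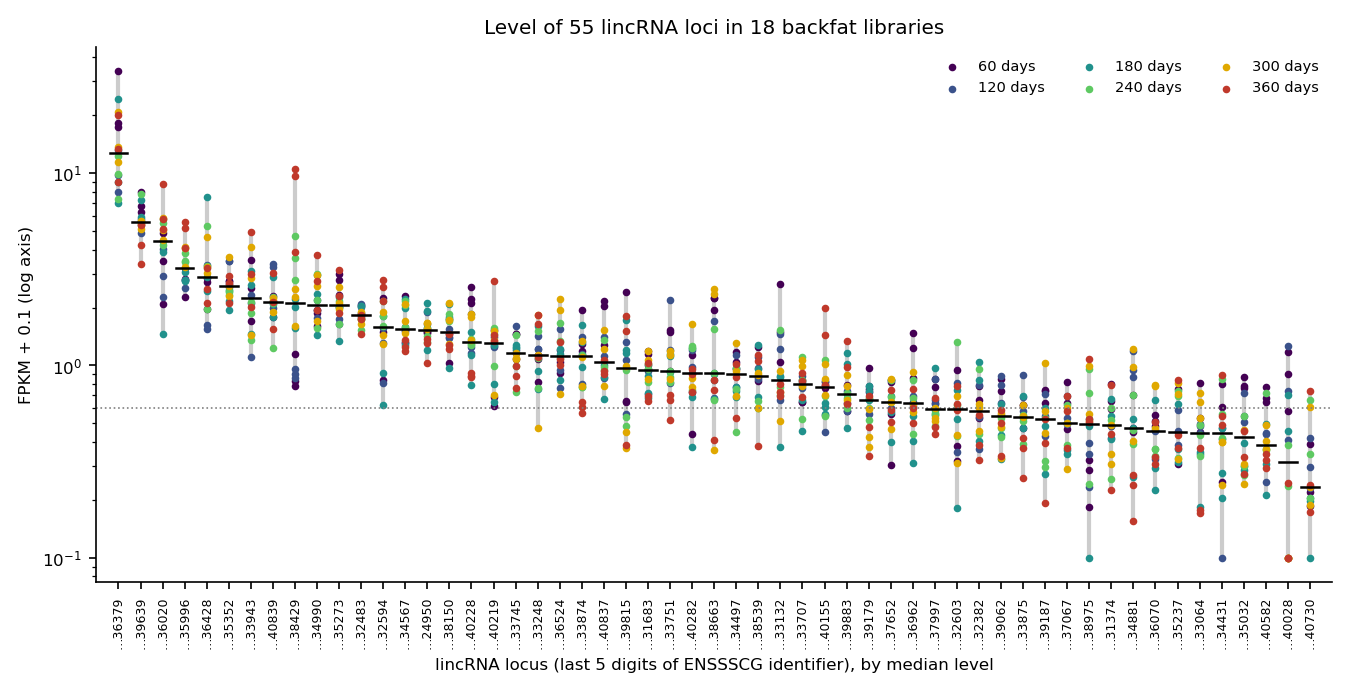
Level of each of the 55 lincRNA loci, ordered by median, with FPKM + 0.1 on a log axis. Points are the 18 libraries coloured by stage, grey bars span lowest to highest, black ticks are medians and the dotted line is 0.5 FPKM; ENSSSCG00000036379 stands highest with a median of 12.6 FPKM and most loci lie around or below 1 FPKM.

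ENSSSCG00000036379 was the most abundant of them. It lies on chromosome 3 (21635721 to 21651345, plus strand), 9417 bp downstream of ENSSSCG00000039712, a protein-coding row described as similar to leucine carboxyl methyltransferase 1. In RefSeq it overlaps the protein-coding model LOC110260108 as well as a long noncoding RNA. Its level was 33.7, 18.1 and 17.3 FPKM at 60 days, 13.1, 7.86 and 9.72 at 120 days, and 6.93, 24.1 and 8.89 at 180 days. It was 12.2, 9.74 and 7.21 FPKM at 240 days, 20.7, 13.5 and 11.4 at 300 days, and 19.8, 13.2 and 8.86 at 360 days. The 3 pigs of 60 days were above the 3 of 120 days, while within every later stage the pigs spread widely and the stages overlapped. The log2 fold change of 120 against 60 days was -1.08 ± 0.42 (SE), with an adjusted p of 0.28 (edgeR), and did not pass. This 1 locus made up between 9.65% and 32.4% of the summed FPKM of the 55 loci in a library.

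Several of the abundant loci host small RNAs. ENSSSCG00000039639 (chromosome 4, 67844424 to 67848366, plus strand) shares its row with a small nucleolar RNA, a class that guides chemical modification of ribosomal RNA. It was the second most abundant, at 6.19, 6.63 and 7.83 FPKM at 60 days and 4.11, 5.26 and 3.26 FPKM at 360 days, with a median of 5.50 FPKM. That locus was also among the 5 steadiest loci of at least 1 FPKM, with a coefficient of variation of 20.1%. The row of ENSSSCG00000035996 holds ssc-mir-29b-2 and ssc-mir-29c, members of the miR-29 family, which is known to repress collagen and other matrix genes. ENSSSCG00000036428 (chromosome 3, 28896126 to 28914765, minus strand) overlaps MIR365-1 of RefSeq and ranged from 1.46 to 7.44 FPKM with a median of 2.78 FPKM. Its highest library, 180 days replicate 2, stood beside 2.32 and 2.79 FPKM in the other pigs of that age. The row of ENSSSCG00000035352 also lists ENSSSCG00000033576, with the types miRNA and lincRNA. In such rows the reads of the small RNA and of the host cannot be told apart.

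The remaining loci of the top 10 had medians between 1.97 and 4.36 FPKM. ENSSSCG00000036020 overlaps IFRD1 on the opposite strand. The mixed row of ENSSSCG00000035352 lies 26395 bp from PPARA, which encodes a nuclear receptor for fatty acids that drives fatty acid oxidation, and ranged only from 1.85 to 3.58 FPKM. ENSSSCG00000033943 (median 2.13 FPKM) lies 75008 bp from SNX10 and overlaps the protein-coding model LOC106506844 of RefSeq. ENSSSCG00000040839 (median 2.05 FPKM), whose row also joins a pseudogene and a protein-coding model over 855768 bp, lies 41261 bp from ZNF217. ENSSSCG00000038429 had a median of 2.01 FPKM but the widest stage pattern, described below with the other called loci. ENSSSCG00000034990 lies 854 bp from HES1, a transcriptional repressor downstream of Notch, in divergent orientation. Its level was between 1.5 and 1.84 FPKM at 60 days and 1.85, 2.66 and 3.67 FPKM at 360 days, and those ranges lay just apart, although no comparison called it.

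The steadiest loci of at least 1 FPKM were ENSSSCG00000032483, ENSSSCG00000024950, ENSSSCG00000035352, ENSSSCG00000039639 and ENSSSCG00000033745, with coefficients of variation from 10.2% to 22.5%. ENSSSCG00000032483 lay between 1.36 and 1.98 FPKM in all 18 libraries. Its row joins 2 protein-coding models, TSTA3 and PYCR3, and that of ENSSSCG00000024950 and ENSSSCG00000032287 lists the types protein-coding and lincRNA, so their values are not those of a lincRNA alone. Such a row is called here by its first identifier, which need not be the lincRNA. In all, 6 of the 55 rows carry several transcript types.

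The position of lincRNA loci relative to protein-coding genes was described next. The nearest protein-coding row overlapped the locus in 10 cases, 7 of them on the opposite strand, and lay within 10 kb or overlapped in 29 cases. The median gap was 6070 bp and the largest was 342381 bp, between ENSSSCG00000040730 and SORCS1. Divergent pairs, in which the starts of both loci face each other, were the most frequent, with 22 loci (40.0%) against 13.6% of 11919 protein-coding rows treated in the same way. Overlapping rows were not counted as divergent, and overlap was seen at 18.2% of the lincRNA loci against 40.9% of the protein-coding rows. In 7 cases (12.7%) the divergent gap was under 100 bp, against 2.28% of protein-coding rows. The lincRNA label itself depends on where a transcript lies relative to coding genes, so these shares are a description and carry no test.

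The 7 close divergent neighbours were TUT7 (gap of 6 bp), which encodes a uridylyltransferase acting on RNA ends, DPH5 (18 bp) of the diphthamide pathway, PSMD14 (35 bp), a deubiquitinase of the proteasome, DYNLRB2 (49 bp), a dynein light chain, LYPLAL1 (70 bp), EXO1 (80 bp), an exonuclease of mismatch repair, and ZNF623 (84 bp). Their partners had medians between 0.737 and 1.73 FPKM, and the partner of ZNF623 is the mixed row of ENSSSCG00000032483. The gaps rest on the row ends of the deposited table. In RefSeq the models of ZNF623, DYNLRB2 and TUT7 (listed there under its former symbol ZCCHC6) overlap the partner locus. At 6 of the 7 pairs the protein-coding row passed the minimum level, and the exception was EXO1 with a median of 0.060 FPKM beside 0.847 FPKM of ENSSSCG00000031683. Further divergent neighbours within 2428 bp were HES1, SCRT1, ADRA2C and NFIB. Over the 55 loci, the neighbour had the higher median level in 41 cases. None of the neighbours belonged to the lists of adipocyte and lipid genes (50 genes), matrix and fibroblast genes (31), growth and patterning genes (46 and any HOX gene) or immediate stimulus genes (34). The lists are not complete: the neighbours PPARA and ELOVL2 act in lipid metabolism but are not on the first list.

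**Figure D2:**
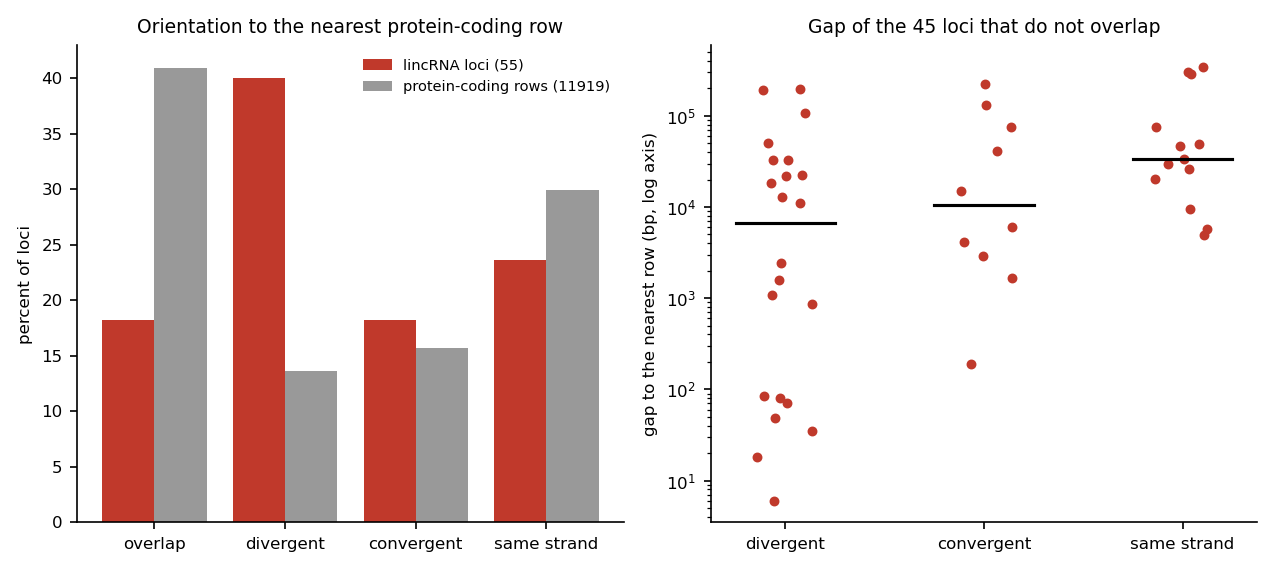
Left, percent of the 55 lincRNA loci (red) and of 11919 protein-coding rows (grey) by orientation to the nearest other protein-coding row. Right, gap in bp on a log axis for the 45 lincRNA loci that do not overlap it, 1 point per locus with the median as a line; 7 divergent gaps lie under 100 bp.

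The stage of the highest mean level was 60 days for 21 of the 55 loci (38.2%, against 35.5% of all loci tested) and 360 days for 12 (21.8% against 14.8%). The stage of the lowest mean was 360 days for 17 loci (30.9% against 29.2%) and 180 days for 16 (29.1% against 14%). At 180 days the log2 fold change against the mean of the other stages had a median of -0.30 over the 55 loci and of 0.00 over all loci tested, with 36 loci lower and 19 higher. This rested largely on 1 library: without 180 days replicate 1, which had the lowest summed level of the 55 loci (53.6 FPKM, against 65.5 to 104 elsewhere), the median was -0.07, and without the 4 libraries with muscle or liver markers it was -0.10. That library is also the one with the highest skeletal muscle markers, whose part in the result was not tested.

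**Figure D3:**
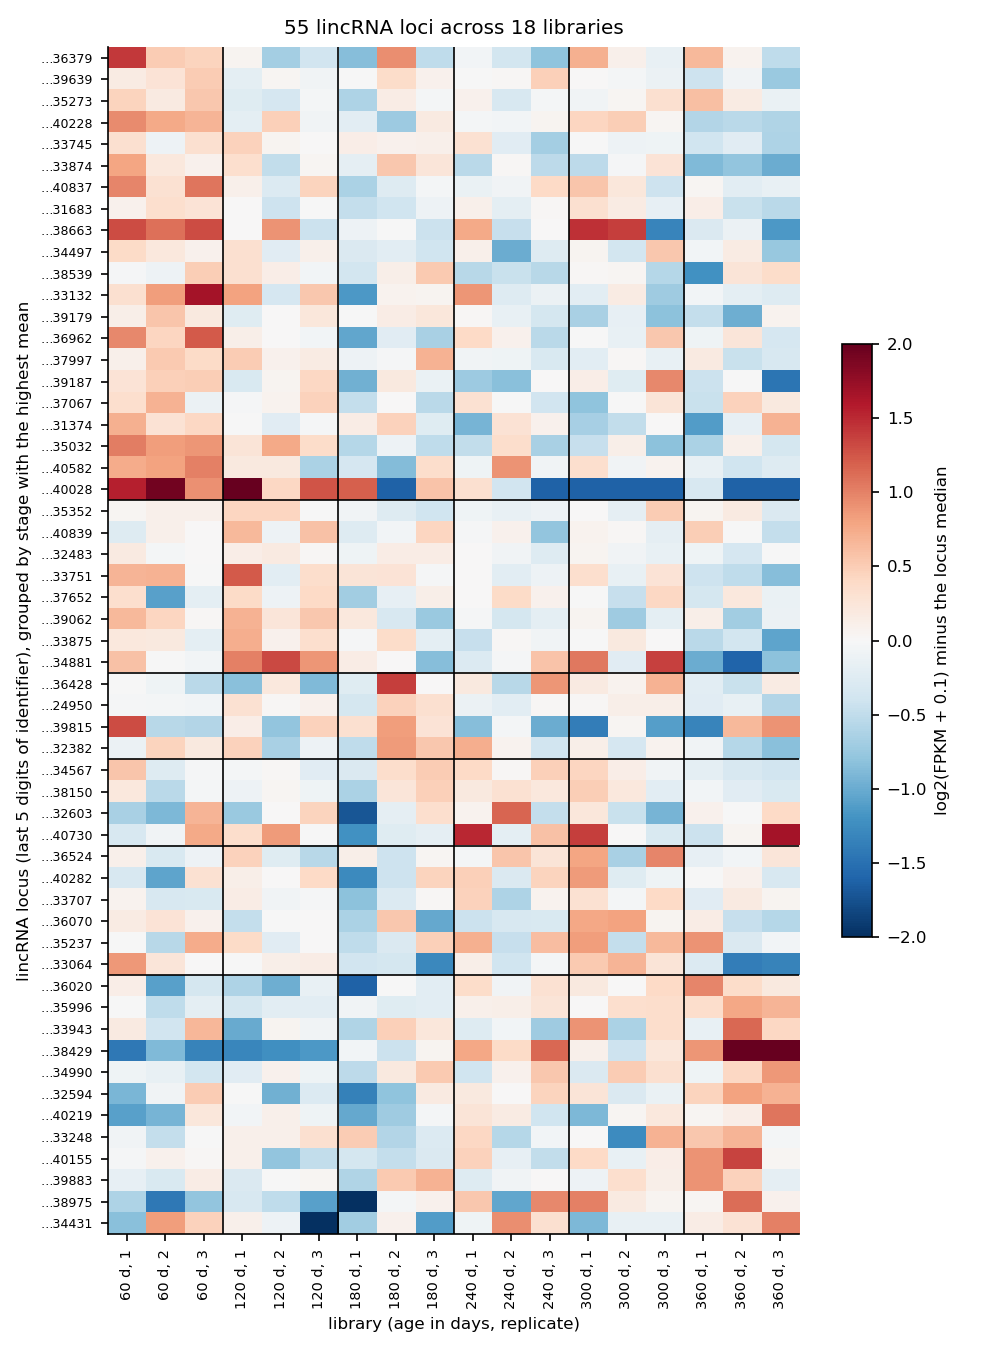
Level of the 55 lincRNA loci (rows, grouped by the stage of highest mean from 60 days at the top to 360 days at the bottom) in 18 libraries (columns), as log2(FPKM + 0.1) minus the median of the locus, with colours limited to 2 in each direction. ENSSSCG00000038429 is high in 360 days replicates 2 and 3, and many rows are pale blue in 180 days replicate 1.

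Few lincRNA loci differed between stages beyond the spread of pigs. Calls required an adjusted p no higher than 0.05 over the 19470 loci together with a change of 1 log2 unit or more in either direction. Because 3 pigs share a litter, p-values of the comparisons of stages measure the spread between litter mates only. Those along age also take in how far each stage departs from the fitted line. In whole fat, a change in the number of cells of a type and a change in RNA per cell cannot be told apart. Across 13 comparisons 9 loci were called at least once and 46 never. For any stage difference 5 of 55 were called, against 4.32% of all loci tested. DESeq2 called 14 of the 55, against 11.1% of all loci to which it gave an adjusted p.

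No lincRNA locus was called by edgeR between adjacent stages. Between 120 and 60 days 0.231% of all loci were called, and between 180 and 120, 240 and 180, 300 and 240, and 360 and 300 days 0% each. The study, which names edgeR with the same thresholds, lists more genes in each of these comparisons. Which edgeR test and filter it used is not given, so the shares here hold for the present fit only. At an unadjusted p under 0.05 these 5 comparisons held 7, 6, 2, 3 and 12 of the 55, against 13.3%, 12.4%, 9.33%, 3.78% and 9.08% of all loci. DESeq2 called 0, 1, 0, 0 and 3 of the 55, against 1.72%, 1.29%, 0.577%, 0.098% and 0.34% of all loci. The lowest p in the first comparison was that of ENSSSCG00000035273 (chromosome 3, 44827873 to 45025757), at 2.68, 2.23 and 2.87 FPKM at 60 days and 1.64, 1.53 and 1.90 FPKM at 120 days (a log2 fold change of -0.53 ± 0.20, adjusted p = 0.26, edgeR, not passing). In the second it was that of ENSSSCG00000035352 beside PPARA, at 3.39, 3.39 and 2.47 FPKM at 120 days and 2.35, 2.05 and 1.85 FPKM at 180 days (log2 fold change -0.56 ± 0.16, adjusted p = 0.17, edgeR, not passing). Both pairs of stages were apart in their 3 pigs, by less than 1 log2 unit. In the other 3 it was that of ENSSSCG00000038429.

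Against the mean of the other stages, 60 days had 2 higher and 1 lower locus (1.23% and 0.95% of all loci), 120 days had 0 higher and 1 lower (0.709% and 0.231%), and 360 days had 2 higher and 1 lower (0.981% and 0.303%). At 180, 240 and 300 days no locus was called, against 0%, 0% and 0.0154% of all loci, with 5, 1 and 5 of the 55 at an unadjusted p under 0.05 (10.9%, 10.7% and 6.67% of all loci). DESeq2 called 0, 1 and 0 of the 55 there, against 0.604%, 0.547% and 0.184% of all loci. The lowest p at 180 days was that of ENSSSCG00000036962 (log2 fold change -0.99 ± 0.32, adjusted p = 0.28, edgeR, not passing). Along age 4 loci rose and 2 fell, against 2.56% and 2.23% of all loci. These shares of the 55 were of the size of 1 to 4 loci each, so 1 call more or less moves them by 1.82 percentage points.

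The clearest case was ENSSSCG00000038429, a short minus-strand locus of chromosome 10 (66433253 to 66436598). It was at 0.68, 1.04 and 0.73 FPKM at 60 days, 0.76, 0.80 and 0.85 at 120 days, and 1.92, 1.46 and 2.11 at 180 days. It was at 3.53, 2.67 and 4.6 FPKM at 240 days, 2.16, 1.49 and 2.38 at 300 days, and 3.8, 9.61 and 10.3 at 360 days. The 6 youngest pigs were the 6 lowest, 300 days lay below 240 days with no overlap, and 360 days replicates 2 and 3 stood far above the rest while replicate 1 was below 240 days replicate 3. The log2 fold change of 360 days against the others was 2.47 ± 0.22 (adjusted p = 0.000145), that of 60 days -1.68 ± 0.29 (adjusted p = 0.0041), and that of 120 days -1.61 ± 0.29 (adjusted p = 0.014), all by edgeR. Along age it rose by 3.34 ± 0.41 log2 units per 300 days (adjusted p = 0.000102).

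The calls of ENSSSCG00000038429 for any stage difference, along age, at 60 days and at 360 days held without any 1 library, with the Y-linked covariate and without the 4 libraries with muscle or liver markers. The first 2 also held without the 7 libraries low in Y-linked genes. The call at 120 days did not hold without 120 days replicate 1, 2 or 3 (adjusted p = 0.15, 0.061 and 0.063, edgeR), nor without the 4 libraries with muscle or liver markers (adjusted p = 0.069). Between 360 and 300 days the log2 fold change was 2.05 ± 0.34 (adjusted p = 0.081, edgeR) and passed only without 360 days replicate 1 (adjusted p = 0.0048) and with DESeq2 (adjusted p = 3.7e-06). Between 240 and 180 days it was 1.0 (adjusted p = 0.36), between 300 and 240 days -0.84 (adjusted p = 1), and at 240 days against the others 1.01 (adjusted p = 0.11), none passing by edgeR, although DESeq2 called the last (adjusted p = 0.018). Its nearest protein-coding row, ENSSSCG00000033401, lies 22068 bp away in divergent orientation and was listed at 0 FPKM in 14 of 18 libraries, so no neighbour could be compared with it.

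**Figure D4:**
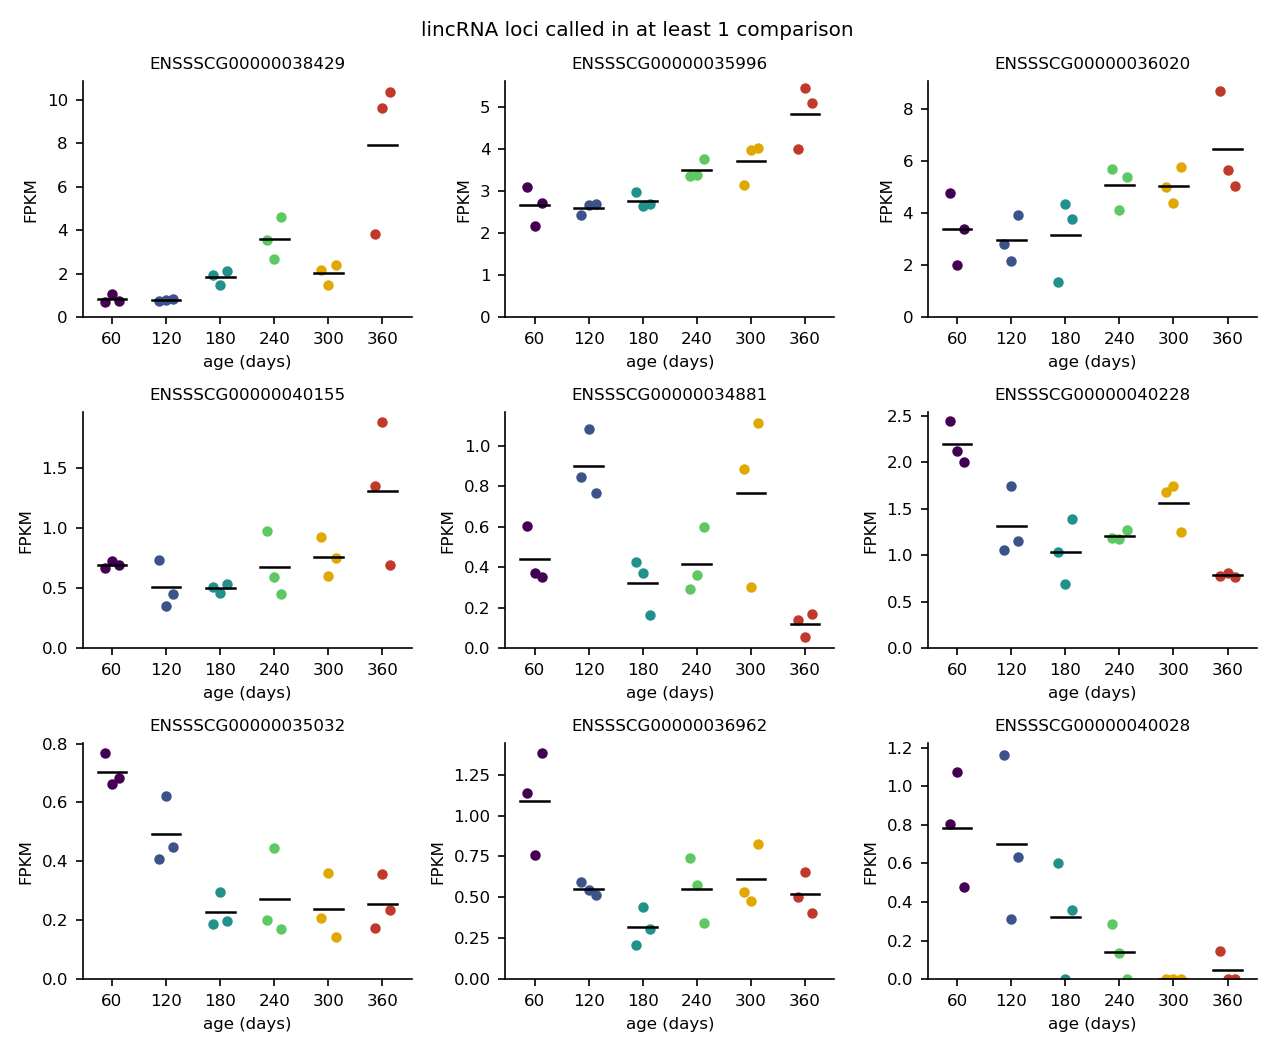
FPKM of the 9 lincRNA loci called in at least 1 comparison, by age in days. Points are the 3 pigs of a stage (spread sideways for sight) and lines are stage means; ENSSSCG00000038429 reaches 10.3 FPKM at 360 days, and ENSSSCG00000040028 is at 0 in all 3 pigs of 300 days.

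The miR-29 host locus rose with age. ENSSSCG00000035996 (chromosome 9, 134985318 to 135020775, plus strand) was at 3.10, 2.18 and 2.72 FPKM at 60 days, 2.43, 2.68 and 2.68 at 120 days, and 2.98, 2.64 and 2.69 at 180 days. It was at 3.36, 3.38 and 3.76 FPKM at 240 days, 3.15, 3.97 and 4.03 at 300 days, and 4.0, 5.44 and 5.09 at 360 days. The 9 pigs of the 3 oldest stages were all above the 9 of the youngest stages. That split was picked after the values were seen, and its share over all loci was not counted. The locus rose by 1.04 ± 0.13 log2 units per 300 days (adjusted p = 0.000118, edgeR) and was called for any stage difference (adjusted p = 0.0040). The change at 360 days against the others (0.79 ± 0.11, adjusted p = 0.0022) passed the p threshold but not the fold of the call.

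Because its change lay near the fold threshold, the call along age of ENSSSCG00000035996 ended by size alone without 60 days replicate 2 (just under 1.0), 360 days replicate 2 (0.98) or 360 days replicate 3 (0.95), with adjusted p-values of at most 0.00057. The call for any stage difference ended likewise without 360 days replicate 3 (0.95, adjusted p = 0.013), and without the 7 libraries low in Y-linked genes (adjusted p = 0.066). The locus is convergent with ENSSSCG00000038506, described as CD46, a regulator of complement, across a gap of 1683 bp.

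ENSSSCG00000036020 (chromosome 18, 33169963 to 33204971, plus strand) overlaps IFRD1, a transcriptional co-regulator known from muscle and gut, by 11625 bp on the opposite strand. In RefSeq the locus also overlaps the protein-coding gene LSMEM1. Its level was 4.78, 1.99 and 3.38 FPKM at 60 days, 2.81, 2.16 and 3.92 at 120 days, and 1.35, 4.36 and 3.78 at 180 days. It was 5.68, 4.13 and 5.38 FPKM at 240 days, 4.99, 4.37 and 5.77 at 300 days, and 8.68, 5.66 and 5.03 at 360 days. The 3 oldest stages overlapped with each other and stood above all but 2 of the 9 youngest pigs. It rose by 1.22 ± 0.30 log2 units per 300 days (adjusted p = 0.012, edgeR), without a call between stages. With the Y-linked covariate the adjusted p was 0.063, and without the 7 libraries low in Y-linked genes it was 0.013.

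ENSSSCG00000040155 (chromosome 6, 3433377 to 3459961, minus strand) lies wholly within GSE1, on the same strand, so reads of the 2 cannot be told apart. It was at 0.66, 0.72 and 0.69 FPKM at 60 days, 0.73, 0.35 and 0.45 at 120 days, and 0.51, 0.46 and 0.54 at 180 days. It was at 0.97, 0.59 and 0.45 FPKM at 240 days, 0.92, 0.60 and 0.75 at 300 days, and 1.35, 1.88 and 0.69 at 360 days. At 360 days replicates 1 and 2 stood above every other library and replicate 3 among them. The log2 fold change at 360 days was 1.15 ± 0.23 (adjusted p = 0.013, edgeR) and along age 1.09 ± 0.30 per 300 days (adjusted p = 0.021). Without 360 days replicate 2 these calls ended (0.84, adjusted p = 0.083, and 0.77, adjusted p = 0.072), and the call along age also ended without 360 days replicate 1 (0.97, adjusted p = 0.0497). With the Y-linked covariate the adjusted p was 0.078 at 360 days and 0.14 along age, and without the 7 libraries low in Y-linked genes it was 0.11 along age. The call for any stage difference (adjusted p = 0.044) ended under 12 of the 18 omissions of 1 library, with an adjusted p of up to 0.15, without the 4 libraries with muscle or liver markers (adjusted p = 0.13), without the 7 low in Y-linked genes (adjusted p = 0.34) and with the Y-linked covariate (adjusted p = 0.14).

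ENSSSCG00000034881 (chromosome 9, 109095821 to 109166758, minus strand) was lowest at 360 days. It lies 4876 bp downstream of ZNF398, a zinc finger gene, on the same strand. Its level was 0.61, 0.37 and 0.35 FPKM at 60 days, 0.85, 1.08 and 0.77 at 120 days, and 0.43, 0.37 and 0.16 at 180 days. It was 0.29, 0.36 and 0.60 FPKM at 240 days, 0.88, 0.30 and 1.11 at 300 days, and 0.14, 0.055 and 0.17 at 360 days. Of the other 15 pigs only 180 days replicate 3 was as low as the highest of 360 days. The log2 fold change at 360 days was -1.98 ± 0.46 (adjusted p = 0.027, edgeR). It ended without 360 days replicate 1, 2 or 3 (adjusted p = 0.053, 0.080 and 0.073) and with the Y-linked covariate (adjusted p = 0.069). The call for any stage difference (adjusted p = 0.036) ended under 10 of the 18 omissions, with an adjusted p of up to 0.072, without the 4 libraries with muscle or liver markers (adjusted p = 0.052), without the 7 low in Y-linked genes (adjusted p = 0.101) and with the Y-linked covariate (adjusted p = 0.065).

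At 60 days 2 loci lay above all 15 older pigs, ENSSSCG00000035032 and ENSSSCG00000040228, a pattern seen in 4.55% of all loci tested. ENSSSCG00000035032 (chromosome 7, 7608189 to 7635391, plus strand) is convergent with ELOVL2, an elongase of very long polyunsaturated fatty acids, 14989 bp away. It was at 0.77, 0.66 and 0.68 FPKM at 60 days, 0.41, 0.62 and 0.45 at 120 days, and between 0.14 and 0.44 in the 12 older pigs. The log2 fold change at 60 days was 1.18 ± 0.30 (adjusted p = 0.031, edgeR) and it fell by 1.32 ± 0.37 log2 units per 300 days (adjusted p = 0.024). The locus reached the minimum level in 4 libraries, those of 60 days and 120 days replicate 2, so the values that admitted it are those of its high stage, and its calls are no independent evidence of one. Both calls ended without 60 days replicate 1, 2 or 3 (adjusted p between 0.104 and 0.12 at 60 days, and between 0.056 and 0.064 along age) and with the Y-linked covariate (adjusted p = 0.087 and 0.069). Along age it also ended without the 7 libraries low in Y-linked genes (adjusted p = 0.19).

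ENSSSCG00000040228 (chromosome 1, 208140159 to 208180014, minus strand) starts 2428 bp from NFIB, in divergent orientation. NFIB encodes a transcription factor of the nuclear factor I family. The locus was at 2.45, 2.13 and 2.01 FPKM at 60 days, 1.06, 1.74 and 1.15 at 120 days, and 1.03, 0.70 and 1.39 at 180 days. It was at 1.19, 1.17 and 1.27 FPKM at 240 days, 1.68, 1.75 and 1.3 at 300 days, and 0.78, 0.81 and 0.77 at 360 days. The 60-day pigs were the highest, 2 of 3 pigs of 300 days lay above those of 240 days, and 360 days was low in all 3 with only 180 days replicate 2 below. It was called for any stage difference (range of stage means 1.29 log2 units, adjusted p = 0.046, edgeR). That call ended under 14 of the 18 omissions (adjusted p of up to 0.12), without the 4 libraries with muscle or liver markers (adjusted p = 0.105), without the 7 low in Y-linked genes (adjusted p = 0.24) and with the Y-linked covariate (adjusted p = 0.071). The change at 60 days, 0.80 ± 0.19, did not reach the fold of the call.

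ENSSSCG00000036962 (chromosome 4, 80237048 to 80349289, minus strand) lies 46251 bp from SPIDR, a gene of DNA repair. It was at 1.14, 0.76 and 1.38 FPKM at 60 days, 0.59, 0.54 and 0.51 at 120 days, 0.21, 0.44 and 0.31 at 180 days, and between 0.34 and 0.825 in the 9 older pigs. The 60-day pigs overlapped with 300 days only. Its log2 fold change at 60 days was 1.01 ± 0.28 (adjusted p = 0.039, edgeR), at the edge of the fold, and rested on a median count of 37. The call ended under 13 of the 18 omissions of 1 library, most strongly without 60 days replicate 3 (0.80, adjusted p = 0.22), with the Y-linked covariate (adjusted p = 0.14) and without the 4 libraries with muscle or liver markers (adjusted p = 0.11).

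ENSSSCG00000040028 was found in the young stages. It lies on chromosome 9 (96415473 to 96463177, plus strand), 29699 bp downstream of SEMA3A on the same strand, which encodes a secreted guidance factor for axons and vessels. Its counts were 38, 52 and 24 at 60 days, 57, 17 and 32 at 120 days, and 31, 0 and 19 at 180 days. They were 14, 7 and 0 at 240 days, 0, 0 and 0 at 300 days, and 8, 0 and 0 at 360 days. All 6 pigs of 60 and 120 days had at least 17 counts, and 7 of the 12 older pigs had none. Its level fell with age by 4.93 ± 1.27 log2 units per 300 days (adjusted p = 0.016, edgeR), a fitted value that depends on the prior count because of the zeros. It had reached the minimum level in 5 libraries, all of 60 to 180 days. The values that admitted it are thus those of its high stages, and its call along age is no independent evidence of a fall. The call held without any 1 library but not without the 7 libraries low in Y-linked genes (adjusted p = 0.073). At 300 days, where every library was at 0, the locus had the lowest p of the 55 against the other stages (adjusted p = 0.48, not passing).

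At 360 days 2 loci lay below all 15 younger pigs, against 0.806% of all loci tested. They are named here after their values were seen. ENSSSCG00000033874 (chromosome 6) was between 0.46 and 0.54 FPKM at 360 days (log2 fold change -0.96 ± 0.24, adjusted p = 0.034, edgeR), and ENSSSCG00000033751 (chromosome 4) was between 0.42 and 0.60 FPKM (-0.86 ± 0.25, adjusted p = 0.063). Neither reached the fold of the call.

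Finally, the level of a lincRNA locus and of its nearest protein-coding row was compared across the 18 libraries. Over the 49 pairs with both rows above the minimum level, Pearson's r had a median of 0.154, against 0.175 over 11919 pairs of neighbouring protein-coding rows, and 13 (26.5%) were above 0.5 against 17.6%. The highest values were 0.867 for ENSSSCG00000032382, which lies within CMAH on the opposite strand, and 0.823 for ENSSSCG00000040028 and SEMA3A. Next came 0.755 for ENSSSCG00000038663 and AKIRIN2, 0.736 for ENSSSCG00000034497 and MITD1, 0.725 for ENSSSCG00000036020 and IFRD1, and 0.72 for ENSSSCG00000031374 and ADRA2C, an adrenergic receptor gene. The lowest was -0.466, between ENSSSCG00000033707 and ENSSSCG00000034773. These pairs were picked by their r and are given as descriptions over libraries that share stages, and some of them overlap or adjoin.

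A test was made for the 5 pairs of called loci with a neighbour within 10 kb, with p-values from 100000 permutations of libraries, which treat litter mates as independent, adjusted over the 5. ENSSSCG00000036020 and IFRD1 were correlated (r = 0.725, adjusted p = 0.0027, rho = 0.659, adjusted p = 0.017, permutation test). IFRD1 was at 5.75 to 7.36 FPKM at 60 days and 12.1 to 13.2 FPKM at 360 days. Without the 2 libraries farthest from the median the r was 0.609, and within stages it was 0.627. The overlap on opposite strands means that shared reads could enter both values, which was not tested. If strand was not used in counting, shared reads would give a positive r in advance. The test of this pair is therefore no evidence of a relation between the 2.

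ENSSSCG00000040155 lies within GSE1 on the same strand, so shared reads could enter both values, which was not tested. Shared reads would give a positive r in advance, so the test of this pair is no evidence of a relation. The pair had r = 0.576 (adjusted p = 0.021) and rho = 0.595 (adjusted p = 0.022, permutation test), with 0.45 within stages and 0.432 without the 2 farthest libraries. Without 360 days replicate 2 the r was 0.375 (p = 0.135, permutation test) and no longer passed. ENSSSCG00000040228 and NFIB had r = 0.58 (adjusted p = 0.021) and rho = 0.577 (adjusted p = 0.022, permutation test). That relation lay between stages: within stages the r was -0.363. ENSSSCG00000035996 and ENSSSCG00000038506 (r = 0.451, adjusted p = 0.076, rho = 0.304, adjusted p = 0.28, permutation test) did not pass, and without the 2 farthest libraries, both of 360 days, the r was 0.13. ENSSSCG00000034881 and ZNF398 (r = 0.154, adjusted p = 0.54, rho = 0.065, adjusted p = 0.80, permutation test) did not pass either, and ZNF398 stayed between 1.82 and 2.68 FPKM in all libraries.

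**Figure D5:**
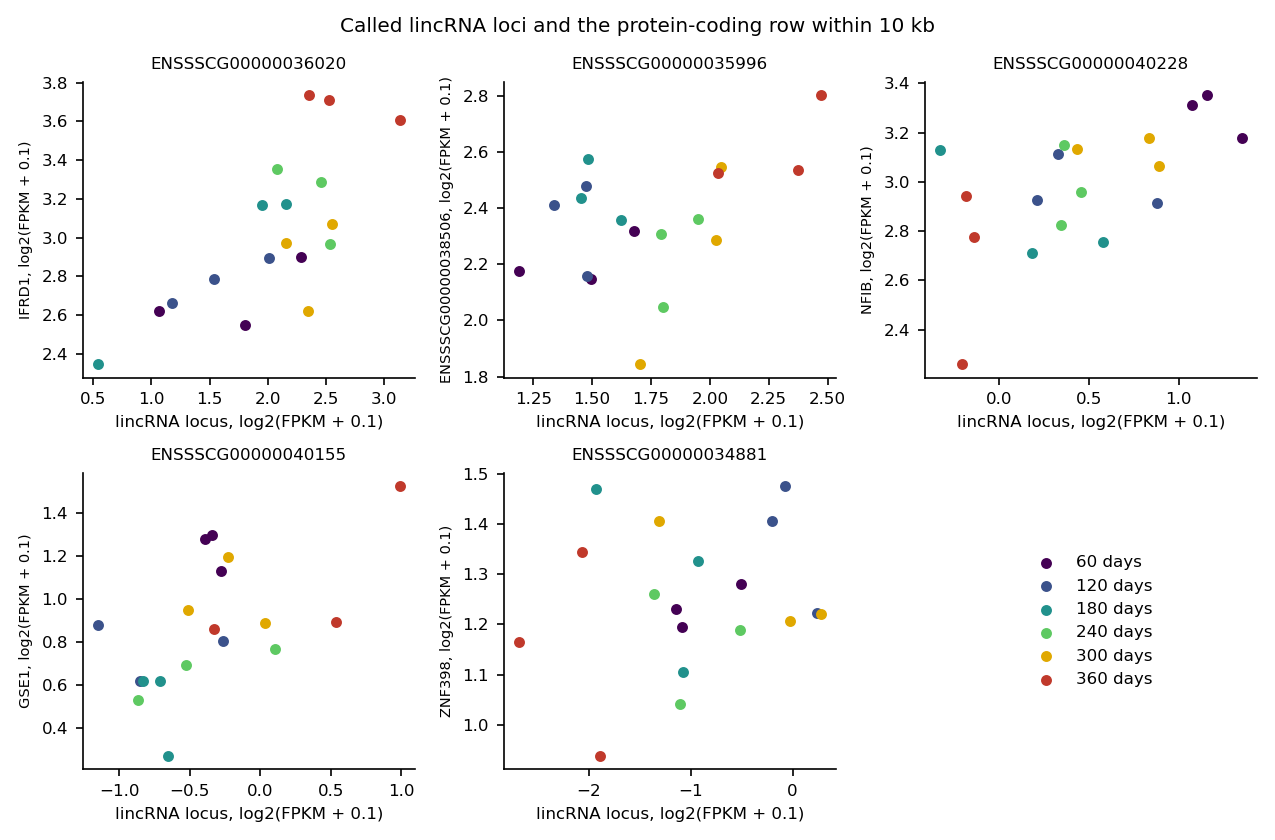
Level of 5 called lincRNA loci (x axis) against that of the nearest protein-coding row (y axis), both as log2(FPKM + 0.1), 1 point per library coloured by stage. For IFRD1 the 3 pigs of 360 days are highest (r = 0.725), while for ZNF398 no slope is seen (r = 0.154).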

How the data were processed

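RNA of 18 backfat libraries was sequenced by the authors as paired reads, trimmed with Cutadapt, mapped with Hisat2 to Sscrofa11.1 and assembled with StringTie. FPKM values deposited by the authors come from StringTie. Counts deposited by the authors are whole and not normalized, and how they were taken is not given in the sources used here. All 18 libraries were used.

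The 19470 loci that reached 0.5 FPKM in 3 libraries or more entered 1 quasi-likelihood fit of their counts in edgeR (version 4.0.16) with TMM scaling, 6 stage groups and Benjamini-Hochberg adjustment over all loci, and a second fit used age per 300 days as a covariate. The fit along age treats litter mates as independent. Standard errors are the fold change divided by the root of F. Comparisons were any stage difference, 5 adjacent pairs, each stage against the average of the remaining 5, and age. The nearest protein-coding row had the smallest gap on the chromosome. Loci named for their neighbours' gap or correlation were picked after their values were seen. Splits of younger against older stages described for single loci were picked likewise, and their shares over all loci were not counted. RefSeq annotation of Sscrofa11.1 was matched by overlap of positions, since 0 loci matched by Ensembl identifier.

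The members, the lists and the tests were chosen with earlier results of these data known. Loci were named as the 10 highest in median FPKM, those called (up to 5 per direction among those whose libraries do not overlap, and for any stage difference up to 15), the lowest p where none was called, and the 5 steadiest. Alternatives were median-of-ratios scaling, no filter, filterByExpr, DESeq2 (version 1.42.0), limma (version 3.58.1) on log2 FPKM with pseudocounts of 0.1 and 1, a replicate block, a covariate for Y-linked level, and each library left out. Leaving out the 4 libraries with muscle or liver markers over 100 FPKM, or the 7 low in Y-linked genes, was chosen after seeing the data. The fits were tested on simulated data.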

Additional observations from a re-analysis of the deposited data

How the results depend on the processing

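Counts of called lincRNA loci changed by over 1.5 times under these settings. For any stage difference 5 became 14 with DESeq2, 3 with no filter, with filterByExpr, with limma at a pseudocount of 0.1 and without the 4 libraries with muscle or liver markers, 2 with the Y-linked covariate, and 1 with limma at a pseudocount of 1 and without the 7 libraries low in Y-linked genes. Along age 6 became 1 with limma at a pseudocount of 1 and 3 without those 7 libraries. At 60 days 3 became 1 with the Y-linked covariate and 0 with limma at a pseudocount of 1. At 120 days 1 became 2 with DESeq2, and 0 with limma at a pseudocount of 1 and without the 4 libraries. At 360 days 3 became 1 with limma at a pseudocount of 1. DESeq2 called 1 locus in 180 against 120 days, 3 in 360 against 300 days and 1 at 240 days, where edgeR called 0. With each library omitted in turn there were 2 to 5 calls for any stage difference, 4 to 8 along age, 1 to 4 at 60 days, 0 to 2 at 120 days, 1 to 4 at 360 days and 0 to 1 between 360 and 300 days. The correlation of ENSSSCG00000035996 with its neighbour ranged from 0.257 to 0.526 and that of ENSSSCG00000040155 from 0.375 to 0.63 over these omissions. Limma on log2(FPKM + 1) understates changes of loci this low. Median-of-ratios scaling moved no count past 1.5 times. No called locus changed direction under any alternative run. Replicate numbers do not pair the pigs (mean residual correlation 0.0108 between equal numbers and -0.00528 between different ones), and with the replicate block the counts were the same in all 13 comparisons (5 for any stage difference and 6 along age), while ENSSSCG00000040228 (adjusted p = 0.080, edgeR) and ENSSSCG00000036962 (adjusted p = 0.062) were no longer called and other loci were. At 0.5 FPKM in any library the rule would take 74 loci, and at 1 FPKM in 3 libraries 31. Depth limits the low loci most, since 16 of the 55 had a median count under 100.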

Other observations

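The count of a locus divided by its FPKM and by the scaled depth of the library gives a value in kb, called the implied length here. It would be a transcript length only if the counts and the FPKM rested on the same reads, which is not known. Over the 55 lincRNA loci the median implied length was 4.27 kb, and it ran from 0.459 kb at ENSSSCG00000034431 to 133 kb at ENSSSCG00000035273. At 27 loci it was under 10% of the genomic span, as at ENSSSCG00000036962 (0.858 kb of 112 kb). At 15 loci it was over 50% of the span, among them ENSSSCG00000036379 (121%), the miR-29 host ENSSSCG00000035996 (121%), ENSSSCG00000035352 (131%), ENSSSCG00000040155 within GSE1 (114%) and ENSSSCG00000038663 (64.9% of 194 kb). ENSSSCG00000038429, the locus with the clearest stage pattern, was at 69.5% of 3.35 kb. A transcript cannot be longer than its genomic span, so values above 100% are not lengths. How the counts were taken is not given in the sources used here, so the scale of the other values is uncertain too. RefSeq annotation overlapped 45 of the 55 loci, with a long noncoding RNA at 32 and a protein-coding gene model at 27 of them. Among those 27 are ENSSSCG00000036379, ENSSSCG00000036020, ENSSSCG00000035352, ENSSSCG00000033943 and ENSSSCG00000040839 of the 10 most abundant loci.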
